A study of Homo sapiens with 8 samples.

Results

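The proteasome genes were followed in HaCaT, a human keratinocyte line that grows without limit in culture, in 4 OGD-R libraries and 4 Control libraries of RNA sequencing. OGD-R cells had been deprived of oxygen and glucose and then given both back, and are labelled as an early stage; Control cells carry no treatment label. The sources used here do not state how long each step lasted. Members were taken by name, as genes whose symbol starts with PSMA to PSMG and a number, without hyphenated names and without 2 interferon-inducible beta subunit genes. This gave 47 of the 24252 genes in the tables. Of these, 46 encode proteasome subunits, activators, an inhibitor or assembly chaperones. The other, PSMC3IP, shares only the letters, since its product works in meiotic recombination. PSMA8, a testis subunit, and PSMB11, a thymus subunit, were listed at 0 in all 8 libraries, and the other 45 genes passed the filter of a mean of 1 FPKM (fragments scaled to gene length and library size).

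The proteasome is the main protease for proteins tagged with ubiquitin. Its core is a stack of rings: outer rings of alpha subunits gate the entry, and inner rings of beta subunits carry the active sites. A regulatory particle caps the core. Its base unfolds substrates with a ring of ATPases, and its lid removes the ubiquitin chain. Activators of the PSME genes can take the cap's place, and interferon gamma is known to raise some of them together with alternative beta subunits.

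The OGD-R libraries lay close together, but the Control libraries fell into 2 places. Over the 11740 genes tested, log2 values correlated at 0.992 to 0.993 among OGD-R libraries, at 0.992 between Controls 1 and 2, at 0.991 between Controls 3 and 4, and at 0.874 to 0.880 across these pairs. OGD-R libraries correlated at 0.940 to 0.947 with Controls 1 and 2 and at 0.879 to 0.887 with Controls 3 and 4, so Controls 3 and 4 stood apart from the other 6 libraries. The main results below are therefore also given with either pair of Controls left out; p-values then rest on the spread within 1 pair and within OGD-R, and Controls kept are only 2. The labels do not say that libraries came from separate cultures, so the spread may be technical. All 6 keratinocyte markers examined were present, with summed levels of 12640 to 13870 FPKM in OGD-R and 9124 to 10840 FPKM in Control. Of the markers of other cell types, only CD68 (2.94 to 3.74 FPKM in OGD-R, 12.3 to 16.7 FPKM in Control) and COL1A1 (3.45 to 4.20 FPKM in OGD-R, 0.860 to 8.69 FPKM in Control) reached 1 FPKM; the leukocyte markers PTPRC and CD3E stayed at or below 0.0301 FPKM in every library. Of 13 mitochondrially encoded mRNAs, 8 were called higher in OGD-R and 0 lower (limma), where 10.2% of all genes tested were called higher and 9.69% lower. The part of the markers and of mitochondrial RNA in the results was not tested, apart from the scaling without mitochondrial genes given below.

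Among the proteasome genes, the activator PSME1 was higher and the activator PSME4 lower in OGD-R cells, and most core, base and lid genes lay between the Control pairs. With all 8 libraries, 1 of the 45 tested genes was called higher and 1 lower at an adjusted p of 0.05 (limma on log2(FPKM + 1), adjusted over all genes). Over all 11740 genes, 10.2% were called higher, 9.69% lower and 19.9% in either direction. At an unadjusted p of 0.05, 5 of the 45 genes passed, against 4020 of the 11740. The median log2 fold change was 0.06 for the 45 genes and 0.02 for all genes tested. All 4 OGD-R values lay below Controls 1 and 2 and above Controls 3 and 4 for 29 of the 45 genes, an arrangement shown by 13.6% of all genes tested. For 2 genes, PSME1 and PSMB10, OGD-R lay above every Control (15.2% of all genes), and for PSME4 below every Control (14.8% of all genes). The other 13 overlapped the Controls (49.6% of all genes), and 0 lay between the pairs with Controls 3 and 4 as the higher pair (6.79%). Controls 1 and 2 were both above Controls 3 and 4 for 43 of the 45 genes (48.1% of all genes) and both below them for 1, PSME4 (34.1%). Without Controls 3 and 4, 2 of the 45 were called higher and 36 lower, against 22.8% and 32.4% of all genes (55.2% in either direction). Without Controls 1 and 2, 34 were called higher and 1 lower, against 39.2% and 28.4% (67.6% in either direction).

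**Figure D1:**
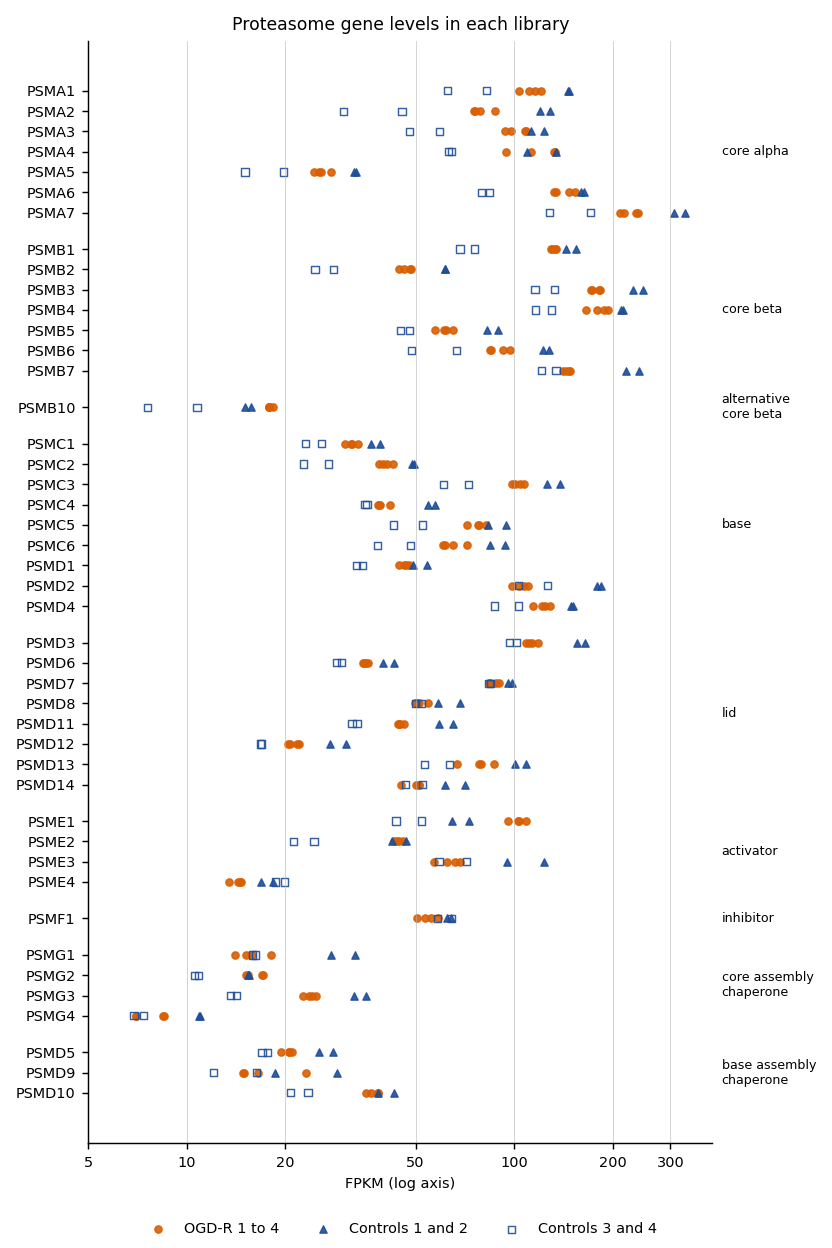
FPKM (log axis) of the 44 tested proteasome genes in each library, by class; orange circles are OGD-R libraries, filled triangles Controls 1 and 2, open squares Controls 3 and 4. For 29 genes the OGD-R points sit between the Control pairs, while PSME1 and PSMB10 lie to the right and PSME4 to the left of all Control points.

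The promoters of PSME1, PSMB10 and PSME4, for which OGD-R lay outside all Controls, are shown here with that of PSME2, the partner of PSME1, whose values overlapped the Controls. PSME1, PSME2 and PSMB10 hold a short element, though only PSME1 was called with all libraries. The element is also found in promoters of other genes that were not called. Each sequence runs from 100 bases before to 25 after the RefSeq transcription start, a stretch of 125 bases on GRCh38.p14. The PSME1 stretch is chr14:24136094-24136218 (plus strand), that of PSME2 chr14:24146586-24146710 (minus strand), that of PSMB10 chr16:67936826-67936950 (minus strand) and that of PSME4 chr2:53970969-53971093 (minus strand). Capitals mark matches, on either strand, to GAAA, any 2 bases, GAAA, the core of interferon response elements, or to TGACNNNGC, the core of antioxidant response elements. Antioxidant response elements are bound by NRF1, encoded by NFE2L1, which raises proteasome genes when proteasome activity is short.
PSME1: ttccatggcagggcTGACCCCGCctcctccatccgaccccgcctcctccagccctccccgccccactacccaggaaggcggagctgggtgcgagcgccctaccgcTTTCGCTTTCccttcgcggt
PSME2: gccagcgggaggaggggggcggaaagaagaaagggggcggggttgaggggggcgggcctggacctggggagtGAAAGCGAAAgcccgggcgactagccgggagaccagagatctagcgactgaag
PSMB10: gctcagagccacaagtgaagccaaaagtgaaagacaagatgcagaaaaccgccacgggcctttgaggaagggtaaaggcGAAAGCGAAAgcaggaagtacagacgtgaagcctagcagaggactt
PSME4: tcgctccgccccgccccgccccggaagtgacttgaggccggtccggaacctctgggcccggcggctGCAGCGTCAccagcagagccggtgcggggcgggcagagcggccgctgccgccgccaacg

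The same 10 bases, GAAAGCGAAA, stand before the start on the coding strand in PSME2 (bases -28 to -19) and PSMB10 (-21 to -12), and after the start on the other strand in PSME1 (6 to 15, counted from 1 at the start). Promoter windows of 250 bases before to 50 after the start were found for 40 of the 46 proteasome genes, 48 windows in all, as some genes have several starts. The interferon element core was in 6 of the 48 windows (12.5%) and in 3.57% of 35116 windows of all genes. The other 3 of these 6 belong to PSMA4, PSMB4 and PSMG4, for which OGD-R lay between or overlapped the Controls. Of the proteasome genes with this element, only PSME1 was called with all libraries. PSME2, PSMB10, PSMA4, PSMB4 and PSMG4 were not. TGACNNNGC was in 14 (29.2%) against 13.3%, CCAAT, the NF-Y site, in 19 (39.6%) against 34.6%, and TTCNNNGAA, a STAT site, in 7 (14.6%) against 7.66%. Both strands were searched, and windows of 1 gene can overlap; the matches are descriptions of the sequence and show no binding.

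PSME1 and PSME2 encode the alpha and beta chains of PA28, a ring that opens the core and favours the release of peptides for antigen presentation. PSME1 (ENSG00000092010, chromosome 14, 24136158 to 24138967, plus strand, GRCh38) had 95.8, 108, 103 and 103 FPKM in OGD-R 1 to 4, against 72.9, 64.7, 52.1 and 43.5 FPKM in Controls 1 to 4. All OGD-R libraries were above all Controls, including the pair in which most proteasome genes were highest. The means were 103 ± 5.16 FPKM in OGD-R and 58.3 ± 13.1 FPKM in Control (SD, n = 4 each), which is 0.83 ± 0.16 as a log2 fold change with its SE (limma, adjusted p = 0.00913). It was called higher in each of the 18 alternative settings, with log2 fold changes of 0.57 without Controls 3 and 4 and 1.09 without Controls 1 and 2. PSME1 shares exon bases with EMC9 on the other strand, and whether reads were counted by strand is not given.

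PSME2 (ENSG00000100911, chromosome 14, 24143362 to 24147570, minus strand), its neighbour on the other strand, had 43.0, 45.8, 43.9 and 44.3 FPKM in OGD-R 1 to 4, against 42.4, 46.8, 24.5 and 21.2 FPKM in Controls 1 to 4. OGD-R was level with Controls 1 and 2 and above Controls 3 and 4. Its log2 fold change of 0.46 ± 0.25 (SE) did not pass (limma adjusted p = 0.226), and was -0.009 without Controls 3 and 4 (adjusted p = 0.915) and 0.93 without Controls 1 and 2 (adjusted p = 3.70e-06). The ratio of PSME1 to PSME2 FPKM, both per length, was 2.23 to 2.37 in the OGD-R libraries and 1.72, 1.38, 2.13 and 2.05 in Controls 1 to 4, so the groups did not overlap. PSME1 alone already lay above all Controls, and how often ratios of other gene pairs do not overlap was not examined. Pseudogenes named after PSME2 are annotated, and how reads were divided among copies is not given.

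PSME3, which encodes the nuclear PA28 gamma ring, had 56.9, 68.4, 62.1 and 66.0 FPKM in OGD-R 1 to 4, against 94.9, 123, 58.9 and 71.5 FPKM in Controls 1 to 4. OGD-R lay below Controls 1 and 2 and overlapped Controls 3 and 4. Its log2 fold change was -0.40 ± 0.21 (SE; limma adjusted p = 0.225); without Controls 3 and 4 it was called lower at -0.76, and without Controls 1 and 2 it was -0.038 (adjusted p = 0.745). The ratio of PSME1 to PSME3 was 1.57 to 1.68 in OGD-R and 0.526 to 0.885 in Control.

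PSME4 encodes PA200, a single-chain activator of the nucleus. PSME4 (ENSG00000068878, chromosome 2, 53864067 to 53970840, minus strand) had 14.5, 14.6, 13.4 and 14.3 FPKM in OGD-R 1 to 4, against 16.8, 18.4, 19.8 and 18.7 FPKM in Controls 1 to 4. Every OGD-R library was below every Control, and the Controls did not split as they did for most other members. The means were 14.2 ± 0.530 FPKM in OGD-R and 18.4 ± 1.26 FPKM in Control (SD, n = 4 each), which is -0.35 ± 0.08 as a log2 fold change with its SE (limma, adjusted p = 0.0205). Leaving out any one of the OGD-R libraries ended the call (adjusted p from 0.0552 to 0.0749), as did the replicate number as a block (0.105) and scaling without mitochondrial genes (0.0643). It was kept with either pair of Controls left out, at -0.29 without Controls 3 and 4 and -0.41 without Controls 1 and 2.

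PSMF1 encodes PI31, first described as a proteasome inhibitor. It had 58.4, 55.5, 53.3 and 50.5 FPKM in OGD-R 1 to 4, against 64.0, 62.5, 58.4 and 64.4 FPKM in Controls 1 to 4. Only the highest OGD-R library reached the lowest Control, and the Control pairs overlapped. Its log2 fold change of -0.19 ± 0.08 (SE) did not pass (limma adjusted p = 0.138). Without Controls 3 and 4 it was called lower at -0.21 (limma adjusted p = 0.0242). Without Controls 1 and 2 it was -0.17 and not called (limma adjusted p = 0.0746). PSMF1 was called in 1 of the 18 alternative settings.

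**Figure D2:**
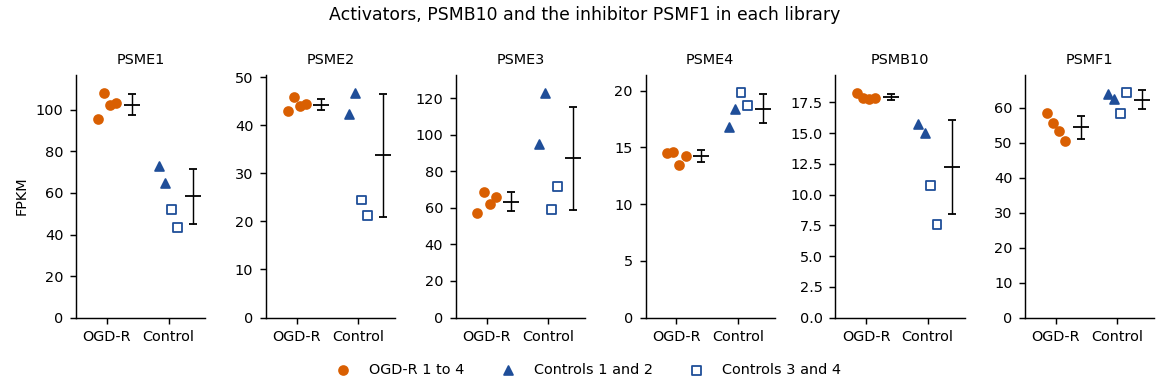
FPKM of PSME1 to PSME4, PSMB10 and PSMF1 in each OGD-R (orange) and Control (blue) library, with the mean ± SD (n = 4 each) beside the points; each axis starts at 0. OGD-R points lie above all Controls for PSME1 and PSMB10 and below all Controls for PSME4.

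The core genes showed no call with all libraries, and opposite calls against the 2 Control pairs. Of 14 tested alpha and constitutive beta genes, 0 passed with limma, and 0 had an unadjusted p under 0.05. Over all 11740 genes tested, 19.9% were called in either direction and 4020 had an unadjusted p under 0.05. Their median log2 fold change was 0.15. Without Controls 3 and 4, 13 of the 14 were called lower (median -0.38), where 32.4% of all genes tested were called lower and the median of all genes was -0.05. Without Controls 1 and 2, all 14 were called higher (median 0.64), where 39.2% of all genes were called higher and the median of all genes was 0.09. The exception without Controls 3 and 4 was PSMA4, at -0.049 (adjusted p = 0.788).

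Among the alpha genes, PSMA7 had the highest level, at 225 ± 13.9 FPKM in OGD-R and 235 ± 100.3 FPKM in Control (SD, n = 4 each). PSMA5 had the lowest, at 25.7 ± 1.33 FPKM in OGD-R and 24.96 ± 8.98 FPKM in Control. The complex holds each alpha subunit in equal number, and the FPKM of these 7 genes spanned this range in both groups. PSMA2 differed most between the Control pairs, with 78.8, 87.2, 76.0 and 75.3 FPKM in OGD-R 1 to 4, against 120, 128, 45.4 and 30.1 FPKM in Controls 1 to 4; it is named after its values were seen. Controls 1 and 2 averaged 3.28 times Controls 3 and 4 for PSMA2, and 1.87 to 2.20 times for the other 6 alpha genes. PSMA1 was at 104 to 121 FPKM in OGD-R, against 147, 146, 82.1 and 62.7 FPKM in Controls 1 to 4.

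The 3 constitutive catalytic subunits followed the same order of libraries. PSMB5, of the chymotrypsin-like site, had 61.7, 65.2, 61.2 and 57.2 FPKM in OGD-R 1 to 4, against 89.5, 82.9, 47.8 and 45.0 FPKM in Controls 1 to 4. PSMB6, of the caspase-like site, had 97.0, 92.2, 84.2 and 84.9 FPKM in OGD-R 1 to 4, against 128, 122, 66.5 and 48.6 FPKM in Controls 1 to 4. PSMB7, of the trypsin-like site, had 147, 148, 141 and 144 FPKM in OGD-R 1 to 4, against 241, 220, 134 and 121 FPKM in Controls 1 to 4. In each case OGD-R lay wholly between the Control pairs, for PSMB7 just above Controls 3 and 4. Their log2 fold changes were -0.05 for PSMB5, 0.08 for PSMB6 and -0.24 for PSMB7 (SE 0.23, 0.30 and 0.22), none of which passed. Without Controls 3 and 4 they were -0.48, -0.48 and -0.66, and without Controls 1 and 2 they were 0.39, 0.64 and 0.18, each called with limma. The structural beta genes PSMB1 to PSMB4 lay between the pairs as well, with OGD-R means of 46.7 FPKM for PSMB2 to 182 FPKM for PSMB4.

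PSMB10, the interferon-inducible subunit that can replace PSMB7 at its active site, did not follow PSMB7. PSMB10 (ENSG00000205220, chromosome 16, 67934502 to 67937087, minus strand) had 18.3, 17.9, 17.8 and 17.8 FPKM in OGD-R 1 to 4, against 15.7, 15.04, 10.7 and 7.58 FPKM in Controls 1 to 4. All OGD-R libraries were above all Controls, while the Controls kept the same split as the core genes. Its log2 fold change of 0.56 ± 0.20 (SE) did not pass with all libraries (limma adjusted p = 0.0891). It was called higher at 0.21 without Controls 3 and 4 (adjusted p = 0.0166), at 0.92 without Controls 1 and 2 (adjusted p = 6.64e-05), without Control 1 alone (0.0444) and when scaled without mitochondrial genes (0.0386). The ratio of PSMB10 to PSMB7 FPKM was 0.121 to 0.127 in OGD-R libraries and 0.0627 to 0.0800 in Control libraries, so the groups did not overlap. PSMB10 alone already lay above all Controls, as did 15.2% of all genes tested. How often ratios of other gene pairs do not overlap was not examined. PSMB10 shares exon bases with a read-through gene on its own strand, so its level is uncertain.

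The base genes, the ATPases PSMC1 to PSMC6 with PSMD1, PSMD2 and PSMD4, also had 0 calls among 9 with all libraries (limma), with 1 at an unadjusted p under 0.05. The share called over all genes tested was 19.9% in either direction. Without Controls 3 and 4, 8 of the 9 were called lower (median -0.30), and without Controls 1 and 2, 7 were called higher (median 0.44). Over all genes tested, 32.4% were called lower (median -0.05) and 39.2% higher (median 0.09) in the same order. All 6 ATPases lay between the Control pairs in every OGD-R library. PSMC5, for example, was at 71.6 to 81.9 FPKM in OGD-R, against 94.1, 83.4, 52.6 and 42.7 FPKM in Controls 1 to 4. PSMD4, the ubiquitin receptor, had 128, 124, 114 and 121 FPKM in OGD-R 1 to 4, against 151, 149, 103 and 87.1 FPKM in Controls 1 to 4, and its log2 fold change was 0.03 ± 0.18 (SE; limma adjusted p = 0.921).

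PSMD2, the scaffold on which shuttle proteins dock, stood apart within the base. It had 110.2, 104, 98.7 and 107 FPKM in OGD-R 1 to 4, against 179, 185, 126 and 103 FPKM in Controls 1 to 4. OGD-R overlapped only the lowest Control, so this gene was not above Controls 3 and 4 as the ATPases were. Its log2 fold change was -0.46 ± 0.19 (SE; limma adjusted p = 0.129), and it was called lower without Control 4 (-0.62, adjusted p = 0.0273) and without Controls 3 and 4 (-0.79). Without Controls 1 and 2 it was -0.12 (adjusted p = 0.253). PSMD2 is described here because its values were seen to differ.

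The lid genes differed less between the Control pairs than the core genes. Controls 1 and 2 averaged 1.15 to 1.90 times Controls 3 and 4 over the 8 lid genes (median 1.51), against 1.73 to 3.28 times over the 14 core genes (median 2.003) and 1.53 to 2.06 times over the 9 base genes (median 1.59). With all libraries 0 lid genes were called (limma; 0 at an unadjusted p under 0.05), with a median log2 fold change of -0.06. The share called over all genes tested was 19.9% in either direction. Without Controls 3 and 4 all 8 were called lower (median -0.42), and without Controls 1 and 2, 5 were called higher (median 0.22). The shares over all genes tested were 32.4% lower and 39.2% higher, with medians of -0.05 and 0.09. PSMD14, the deubiquitinase of the lid, had 50.1, 51.1, 45.1 and 51.2 FPKM in OGD-R 1 to 4, against 61.6, 70.7, 52.3 and 46.5 FPKM in Controls 1 to 4. OGD-R lay below Controls 1 and 2 and overlapped Controls 3 and 4, and the log2 fold change was -0.21 ± 0.14 (SE; limma adjusted p = 0.318). PSMD14 was called lower at -0.41 without Controls 3 and 4 and was at -0.0002 without Controls 1 and 2 (adjusted p = 0.998). PSMD7, its partner, had the lowest of these ratios, at 83.6 to 89.8 FPKM in OGD-R and 83.8 to 98.6 FPKM in Control.

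**Figure D3:**
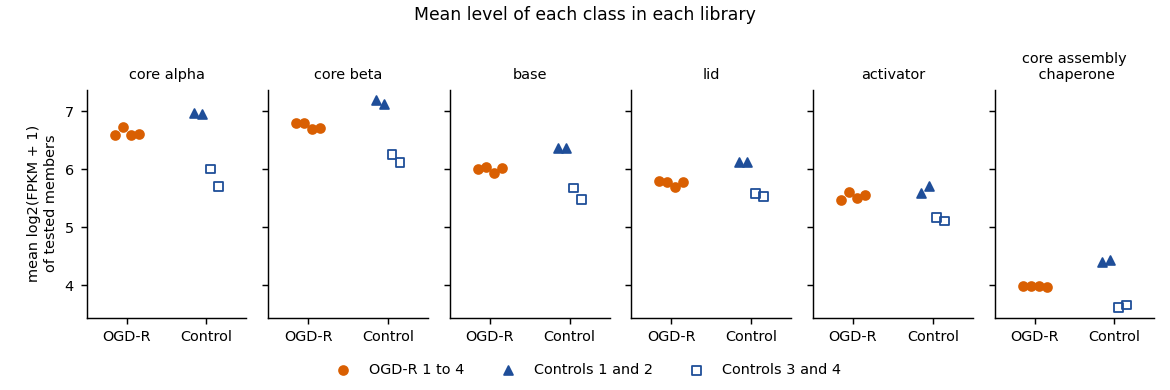
Mean log2(FPKM + 1) over the tested genes of 6 classes in each library; orange circles are OGD-R, filled triangles Controls 1 and 2, open squares Controls 3 and 4. In the core, base, lid and core assembly classes the OGD-R points lie between the Control pairs, and the gap between the pairs is widest in the alpha class.

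Averaged over a class, mean log2 levels of the alpha genes were 6.59 to 6.73 in OGD-R and 6.98, 6.95, 6.005 and 5.71 in Controls 1 to 4. Those of the lid genes were 5.69 to 5.80 in OGD-R and 6.13, 6.13, 5.58 and 5.53 in Controls 1 to 4. The mean log2 level of the core was above that of the lid by 0.88 to 0.99 in OGD-R and by 0.96, 0.91, 0.55 and 0.38 in Controls 1 to 4. By this difference OGD-R overlapped Controls 1 and 2 and lay above Controls 3 and 4. Together the 46 genes took 0.654% to 0.708% of the summed FPKM in OGD-R libraries, and 0.869%, 0.879%, 0.564% and 0.499% in Controls 1 to 4. In these bulk libraries, less RNA per cell and a smaller share of cells with high levels cannot be told apart.

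**Figure D4:**
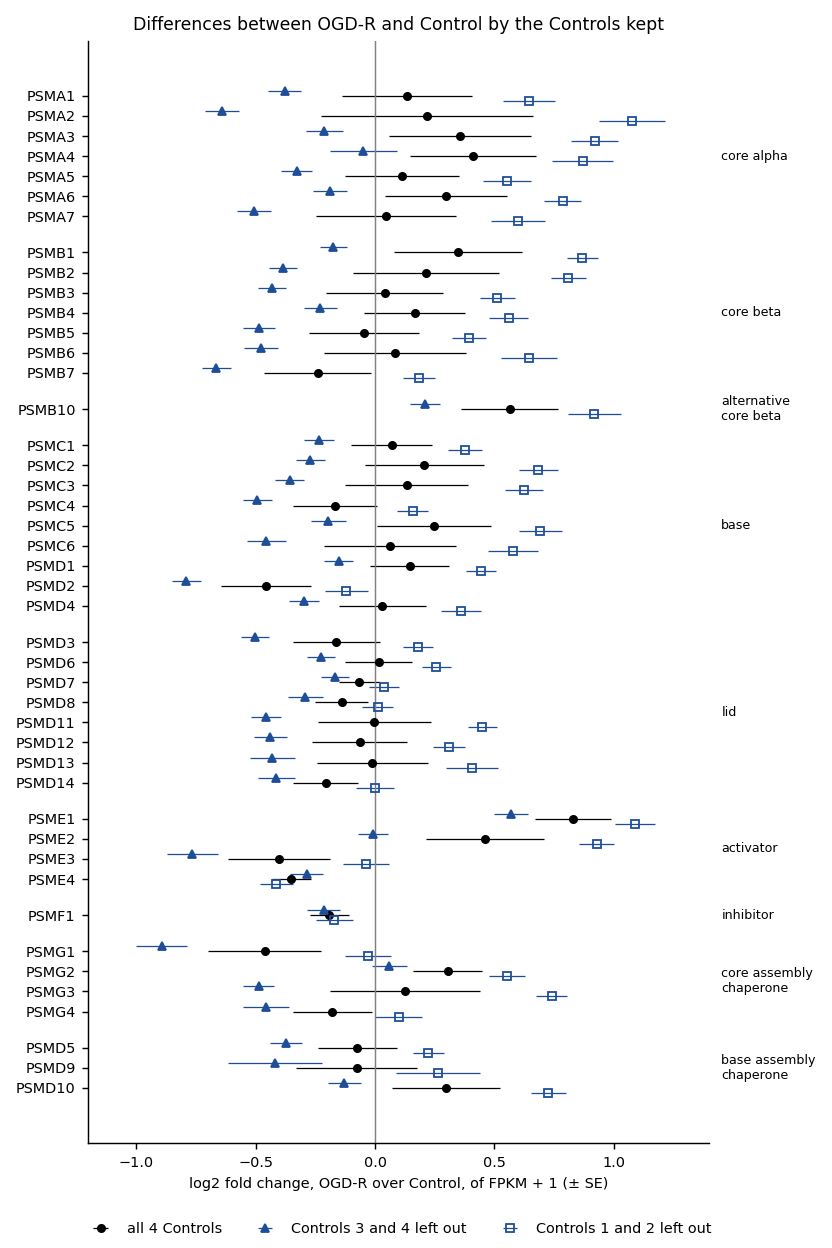
Log2 fold change of FPKM + 1 (± SE), OGD-R over Control, of the 44 tested proteasome genes with all 4 Controls (black circles), without Controls 3 and 4 (filled triangles) and without Controls 1 and 2 (open squares). Of these genes, 36 were called lower without Controls 3 and 4 (32.4% of all genes tested). Without Controls 1 and 2, 33 were called higher (39.2% of all genes tested). PSME1 is right of 0 and PSME4 left of 0 in all 3 fits.

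Assembly chaperones are needed to build the rings and are not part of the finished particle. Of the core chaperones PSMG1 to PSMG4 and the base chaperones PSMD5, PSMD9 and PSMD10, 0 were called with all libraries (limma; 0 at an unadjusted p under 0.05). The share called over all genes tested was 19.9% in either direction. PSMG1, which pairs with PSMG2 to seat the alpha ring, had 15.2, 18.1, 15.8 and 14.01 FPKM in OGD-R 1 to 4, against 27.6, 32.7, 16.2 and 15.9 FPKM in Controls 1 to 4. PSMG2 had 15.2, 15.4, 17.1 and 16.9 FPKM in OGD-R 1 to 4, against 15.4, 15.5, 10.5 and 10.8 FPKM in Controls 1 to 4. The partners thus differed in place: OGD-R was level with Controls 3 and 4 for PSMG1 and level with or above Controls 1 and 2 for PSMG2. PSMG1 and PSMG2 are set side by side here after their values were seen. Their log2 fold changes were -0.46 ± 0.24 for PSMG1 and 0.30 ± 0.14 for PSMG2 (SE; limma adjusted p = 0.209 and 0.175); the difference between the genes was not tested. PSMG1 was called lower at -0.89 and PSMG2 was at 0.06 (limma adjusted p = 0.518) without Controls 3 and 4. Without Controls 1 and 2, PSMG1 was at -0.03 and not called, and PSMG2 was called higher at 0.55. PSMD10, gankyrin, was at 35.3 to 38.4 FPKM in OGD-R, against 38.4, 43.0, 23.4 and 20.7 FPKM in Controls 1 to 4. PSMC3IP, which is no proteasome gene, was at 10.4 to 12.8 FPKM in OGD-R, against 12.4, 13.4, 2.80 and 2.76 FPKM in Controls 1 to 4.

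Genes that work with the proteasome but do not carry a PSM name were examined in lists. Of 6 further subunits and assembly partners, 1 fell (9.69% of all genes tested were lower): AKIRIN2, which brings proteasomes into the nucleus, was at 18.5 to 19.9 FPKM in OGD-R and 23.6 to 33.6 FPKM in Control (log2 fold change -0.53; limma adjusted p = 0.0199), a call lost without any single OGD-R library, with the block and when scaled without mitochondrial genes. It was called lower at -0.33 without Controls 3 and 4 and at -0.73 without Controls 1 and 2. ADRM1, a ubiquitin receptor of the base, lay below all Controls at 66.3 to 78.1 FPKM in OGD-R, against 82.6 to 123 FPKM in Control (limma adjusted p = 0.0574). ADRM1 was called lower at -0.68 without Controls 3 and 4 and at -0.24 without Controls 1 and 2. SEM1, a small lid subunit, was at 21.8 to 28.3 FPKM in OGD-R, against 12.2 to 25.2 FPKM in Control (limma adjusted p = 0.0855). SEM1 was at 0.26 and not called without Controls 3 and 4, and was called higher at 0.97 without Controls 1 and 2. POMP, which matures the core, had 50.2, 61.1, 52.0 and 53.7 FPKM in OGD-R 1 to 4, against 98.6, 80.4, 49.7 and 35.2 FPKM in Controls 1 to 4, between the pairs like the core genes. POMP was called lower at -0.71 without Controls 3 and 4 and higher at 0.36 without Controls 1 and 2.

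For the lists in this paragraph, the share called over all 11740 genes tested was 19.9% in either direction, and 4020 had an unadjusted p under 0.05. Of 9 proteasome-bound enzymes and partners, 0 were called (limma; 4 at an unadjusted p under 0.05). The deubiquitinase USP14 was at 13.8 to 15.0045 FPKM in OGD-R and 15.4 to 20.7 FPKM in Control, and UCHL5 was at 25.6 to 29.7 FPKM in OGD-R, against 41.0, 43.0, 17.9 and 19.3 FPKM in Controls 1 to 4. UCHL5 was called lower at -0.64 without Controls 3 and 4 and higher at 0.50 without Controls 1 and 2. USP14 was called lower at -0.49 without Controls 3 and 4, and was at -0.11 and not called without Controls 1 and 2. Of 6 ubiquitin and E1 genes, 0 were called (1 at an unadjusted p under 0.05). UBB, which encodes polyubiquitin, was at 316 to 349 FPKM in OGD-R and 345 to 440.1 FPKM in Control. UBB was called lower at -0.40 without Controls 3 and 4, and was at -0.07 and not called without Controls 1 and 2. Of 10 genes of the VCP unfoldase and its partners, 0 were called (1 at an unadjusted p under 0.05), and VCP was at 61.8 to 67.9 FPKM in OGD-R and 43.1 to 67.6 FPKM in Control. VCP was at -0.04 and not called without Controls 3 and 4, and was called higher at 0.42 without Controls 1 and 2.

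Shuttle receptors carry ubiquitinated proteins to the proteasome. Of 10 examined, 1 (DDI1) was listed at 0 in every library, and of the 9 tested, 3 fell and 0 rose, where 9.69% of all genes tested were called lower and 10.2% higher. Values are given for 2 of the 3. SQSTM1, which also carries cargo to autophagy, was at 65.2 to 71.7 FPKM in OGD-R, against 116, 112, 399 and 387 FPKM in Controls 1 to 4 (log2 fold change -1.61; limma adjusted p = 0.0379). ZFAND2A, a stress-induced partner, was at 25.5 to 27.3 FPKM in OGD-R and 28.5 to 42.9 FPKM in Control (log2 fold change -0.45; limma adjusted p = 0.0483). The calls of SQSTM1 and ZFAND2A were lost without any single OGD-R library, without Control 3 or Control 4 (that of ZFAND2A also without Control 1 and with median ratio scaling), with no filter on low values, with the block and when scaled without mitochondrial genes. With a pair of Controls left out both were called lower: SQSTM1 at -0.72 without Controls 3 and 4 and -2.502 without Controls 1 and 2, and ZFAND2A at -0.24 and -0.66 in the same order.

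Of 9 regulators of proteasome gene transcription, 1 rose and 2 fell, where 10.2% of all genes tested were called higher and 9.69% lower. NFE2L1 lay above all Controls, at 138, 127, 138 and 126 FPKM in OGD-R 1 to 4, against 51.2, 52.0, 112 and 110.5 FPKM in Controls 1 to 4. Here Controls 1 and 2, the pair with the most proteasome RNA, were the lower pair. Its log2 fold change was 0.79 ± 0.28 (SE) and did not pass (limma adjusted p = 0.0845); it was called higher at 1.34 without Controls 3 and 4 and at 0.24 without Controls 1 and 2. NFYB, a subunit of the CCAAT-binding factor, rose to 12.01 to 13.8 FPKM in OGD-R, against 10.3, 9.75, 6.38 and 6.50 FPKM in Controls 1 to 4 (log2 fold change 0.62; limma adjusted p = 0.0287), a call lost without any single OGD-R library, without Control 3 or Control 4 and with the block. NFYB was called higher at 0.34 without Controls 3 and 4 and at 0.90 without Controls 1 and 2. The small MAF proteins pair with NRF1 and NRF2 on DNA. MAFG fell to 6.53 to 7.97 FPKM in OGD-R, against 10.9 to 20.3 FPKM in Control (log2 fold change -0.94; limma adjusted p = 0.0177), and MAFK to 8.26 to 10.2 FPKM in OGD-R, against 12.9 to 25.6 FPKM in Control (log2 fold change -0.90; limma adjusted p = 0.0204). Without a single OGD-R library the adjusted p ranged from 0.0458 to 0.0603 for MAFG and from 0.0453 to 0.0664 for MAFK. The call was kept in 2 of these 4 fits for MAFG and in 1 of 4 for MAFK, and that of MAFK was also lost with the block. MAFG was called lower at -0.55 without Controls 3 and 4 and at -1.33 without Controls 1 and 2, and MAFK at -0.53 and -1.28 in the same order.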

How the data were processed

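HaCaT RNA was sequenced in 8 libraries, each deposited as its own table of values by gene. The labels' protocols name total RNA and both a NEBNext and a SMARTer kit. The sources used here name no aligner, counting tool, genome build or annotation. The deposited values carry no unit and were taken as FPKM: they are not whole, sum to between 428984 and 475385 a library and, in 940 single-exon genes, often coincide at the low end once multiplied by gene length. The most frequent product (11 to 18 values within 0.5%) rests on few values and gives what 1 fragment is worth on a gene of 1 kb, 0.0401 to 0.0592 FPKM, far below every tested member. At most 1 value above 0 was identical between any 2 libraries.

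On the log2(FPKM + 1) scale, which understates changes of low genes, limma 3.58.1 in R 4.3.3 was fitted with an intensity trend to the 11740 genes whose mean reached 1 FPKM. P-values were Benjamini-Hochberg adjusted over all of them and called under 0.05. The fit was tried on simulated data in which both groups had the spread of the OGD-R libraries. The Control split was not simulated, so this trial does not show how often calls in these data are false or missed. Of the 24252 rows, 19974 have Ensembl IDs, all found in GENCODE 29 (GRCh38), which gave positions. Of the 47 members, 12 have annotated pseudogenes of the same name and 22 share exon bases with another gene, so their levels are less certain. Sequences are from RefSeq. Members, lists and alternatives were chosen with earlier results of these data known. Genes named outside the members are the called ones of each list and fixed genes; others are said to be chosen after their values were seen. The main fit did not pair libraries by replicate number, and whether the numbers mark libraries prepared together was not tested. Plots used matplotlib 3.10.9 (Python 3.11.15). A few genes of the marker and related lists are counted but not reported by name here.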

Additional observations from a re-analysis of the deposited data

Results flagged for a closer look

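Of 90 sets of 4 libraries (each tested member in each group), 2 held a library far from the other 3, where chance flags about 1 in 20. PSMB10 was at 18.3 FPKM in OGD-R 1, above the other OGD-R libraries, which lay within 17.8 and 17.9 FPKM. PSMC4, an ATPase of the base, was at 41.8 FPKM in OGD-R 1, above 38.4 to 38.9 FPKM in the other OGD-R libraries.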

How the results depend on the processing

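Calls among the members depended on which Controls were kept. Without Controls 3 and 4, 2 members were called higher and 36 lower; without Controls 1 and 2, 34 were called higher and 1 lower; the cause was not tested. By class the calls in either direction were 6 and 7 for alpha, 7 and 7 for constitutive beta, 8 and 7 for base, 8 and 5 for lid, 3 and 2 for core chaperone and 1 and 2 for base chaperone genes without Controls 3 and 4 and without Controls 1 and 2. These classes held 7, 7, 9, 8, 4 and 3 tested genes in that order. Over all genes tested, 55.2% and 67.6% were called in either direction in these 2 fits. Related genes had 29 and 34 calls, against 7 with all libraries. The shares over all genes tested were 55.2%, 67.6% and 19.9% in the same order. The related lists held 6, 9, 6, 9, 10 and 9 tested genes. Scaled without mitochondrial genes, 2 members were called higher and 0 lower, with 1 activator called. With 1 library left out, 1 to 2 members were called higher and 0 to 2 lower, among them 0 to 1 base and 1 to 2 activator genes, and 1 to 12 related genes. Shares over all genes tested are not given for the mitochondrial scaling, the fits without 1 library or the block fit below. Their counts therefore do not tell a change in these genes from a change in calls over all genes.

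With the replicate number as a block, 0 members were called lower, 1 activator was called and 2 related genes were called. The same number did not stand out: deviations from group means correlated between 0.0450 and 0.0646 for the same number and between -0.106 and 0.113 for different numbers. Correlations were positive within numbers 1 and 2 and within numbers 3 and 4, and negative across them. The cause of this was not tested.

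Log2 fold changes changed sign in 24 members without Controls 3 and 4. These were PSMA1 (-0.38), PSMA2 (-0.64), PSMA3 (-0.21), PSMA4 (-0.049), PSMA5 (-0.33), PSMA6 (-0.19), PSMA7 (-0.50), PSMB1 (-0.17), PSMB2 (-0.38), PSMB3 (-0.43), PSMB4 (-0.23), PSMB6 (-0.48), PSMC1 (-0.23), PSMC2 (-0.27), PSMC3 (-0.36), PSMC3IP (-0.15), PSMC5 (-0.20), PSMC6 (-0.45), PSMD1 (-0.15), PSMD10 (-0.13), PSMD4 (-0.30), PSMD6 (-0.23), PSME2 (-0.0090) and PSMG3 (-0.49). Without Controls 1 and 2, 12 changed sign: PSMB5 (0.39), PSMB7 (0.18), PSMC4 (0.16), PSMD11 (0.45), PSMD12 (0.31), PSMD13 (0.41), PSMD3 (0.18), PSMD5 (0.22), PSMD7 (0.037), PSMD8 (0.012), PSMD9 (0.26) and PSMG4 (0.10). Scaled without mitochondrial genes, PSMB5 (0.029), PSMD11 (0.070), PSMD12 (0.0079), PSMD13 (0.063) and PSMD7 (0.0093) changed sign, and with median ratio scaling PSMD6 (-0.0025) did. None of these members was called with all libraries.

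Leaving out 1 library also changed the sign of 19 members, with ranges of -0.10 to 0.31 for PSMA1, -0.16 to 0.52 for PSMA2, -0.10 to 0.26 for PSMA5, -0.21 to 0.25 for PSMA7, -0.017 to 0.41 for PSMB2, -0.15 to 0.21 for PSMB3, -0.21 to 0.12 for PSMB5, -0.18 to 0.28 for PSMB6, -0.058 to 0.19 for PSMC1, -0.073 to 0.32 for PSMC3, -0.17 to 0.26 for PSMC6, -0.16 to 0.17 for PSMD11, -0.19 to 0.086 for PSMD12, -0.19 to 0.15 for PSMD13, -0.12 to 0.14 for PSMD4, -0.18 to 0.046 for PSMD5, -0.073 to 0.11 for PSMD6, -0.26 to 0.14 for PSMD9 and -0.088 to 0.35 for PSMG3. Other filters, pseudocounts and the fit without a trend changed no direction and no call of a member.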
